A study of Solanum lycopersicum with 9 samples.

Results

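Transcripts of 4 tomato dehydrin loci, Solyc02g084850 (TAS14), Solyc02g084840, Solyc04g082200 and Solyc01g109920, all chosen by identifier, were followed in guard cells of 3 genotypes. Dehydrins are strongly hydrophilic proteins, also called group II late embryogenesis abundant proteins, that accumulate in plant tissue as it loses water. They are thought to shield membranes and other proteins from damage, and many dehydrin genes are switched on by abscisic acid, the hormone that also closes stomata in drying leaves. TAS14 is the best studied tomato dehydrin and is known as a gene induced by abscisic acid, salt and osmotic stress. All 4 were found among the 23028 genes of the deposited table, which pairs no name or description with an identifier, so the assignment of these identifiers to dehydrins was not checked against an annotation. A filter on low values kept 3 of the 4 for testing and left out Solyc01g109920.

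Messenger RNA was sequenced from guard cells, which flank each stomatal pore of the epidermis and set its width, isolated from leaves of Solanum lycopersicum. The 3 groups were M82, pro and pro17, with 3 libraries each and all in the cultivar M82, labelled sp-/sp. DELLA proteins hold back growth and other responses to the hormone gibberellin. In pro DELLA function is lost, and pro17, written pro∆17 in the study's design, expresses a DELLA gain of function. Plants grew at 25 °C in 12 h of light at 250 μmol m-2 s-1, and no label gives a plant age, a water shortage applied to any group, or the promoter and number of lines behind pro17. Each preparation started from 4 blended leaves without veins, rinsed on a mesh, so other cells of the epidermal peel or adhering mesophyll may be present. Whether the libraries of a group stem from different plants is not stated in the labels, so the p-values speak to the spread among these samples alone, and that spread may be technical.

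Between 14826561 and 20445679 reads per library were assigned to the listed genes. Pro library 3 stood apart from the other 8 on the first principal component of all tested genes, at 122, followed by pro library 1 at 43.0 and M82 library 3 at 14.7. The other 6 libraries lay between -35.2 and -26.4. All 3 loci listed as guard cell and stomatal lineage markers were read in every group, with summed normalized counts of 2138 to 2650 in M82, 2096 to 2962 in pro and 2172 to 2305 in pro17. The 6 loci listed for leaf mesophyll were read too. Their summed normalized count ran from 81500 in pro library 3 over 180550 in pro library 1 up to 327806 in pro library 2. It was 199779 to 299112 in M82 and 230119 to 260201 in pro17. The single phloem locus gave normalized counts of 19044, 11118 and 27084 in the pro libraries 1 to 3, of 11745 to 15659 in M82 and of 16551 to 18057 in pro17. None of these marker loci was at 0 in any group, and what they encode was not checked against an annotation.

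TAS14 varied more between the pro libraries than any other gene. Its normalized count, the read count of a gene divided by the authors' size factor for the library, was 331, 7.91 and 35710 in the pro libraries 1, 2 and 3. Pro thus held both the lowest and the highest of the 9 values, which differed by a factor of 4515. In M82 the normalized count of TAS14 was 12.6 in library 1, 38.3 in library 2 and 174 in library 3, a 13.9-fold range. In pro17 it was 42.2, 35.9 and 37.4. The pro17 libraries lay inside the range of M82, and both groups lay inside the range of pro.

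The reads behind these values were 11, 39 and 189 in M82, 331, 8 and 39847 in pro, and 44, 40 and 31 in pro17. In pro library 3, TAS14 alone took 0.195% of all reads, or 1949 RPM (reads scaled to library size) with a 95% exact binomial interval of 1930 to 1968. Pro library 1 stood at 18.3 RPM (16.4 to 20.4) and pro library 2 at 0.403 (0.174 to 0.794). The 3 intervals do not meet. The pro17 libraries gave 2.31 (1.68 to 3.10), 2.05 (1.46 to 2.79) and 2.09 (1.42 to 2.97) RPM, intervals that all overlap. All such intervals cover counting error only, as PCR copies of a molecule cannot be recognised in these counts. Because whole preparations were sequenced, a change in the number of cells of a type and a change of RNA per cell cannot be told apart here.

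**Figure D1:**
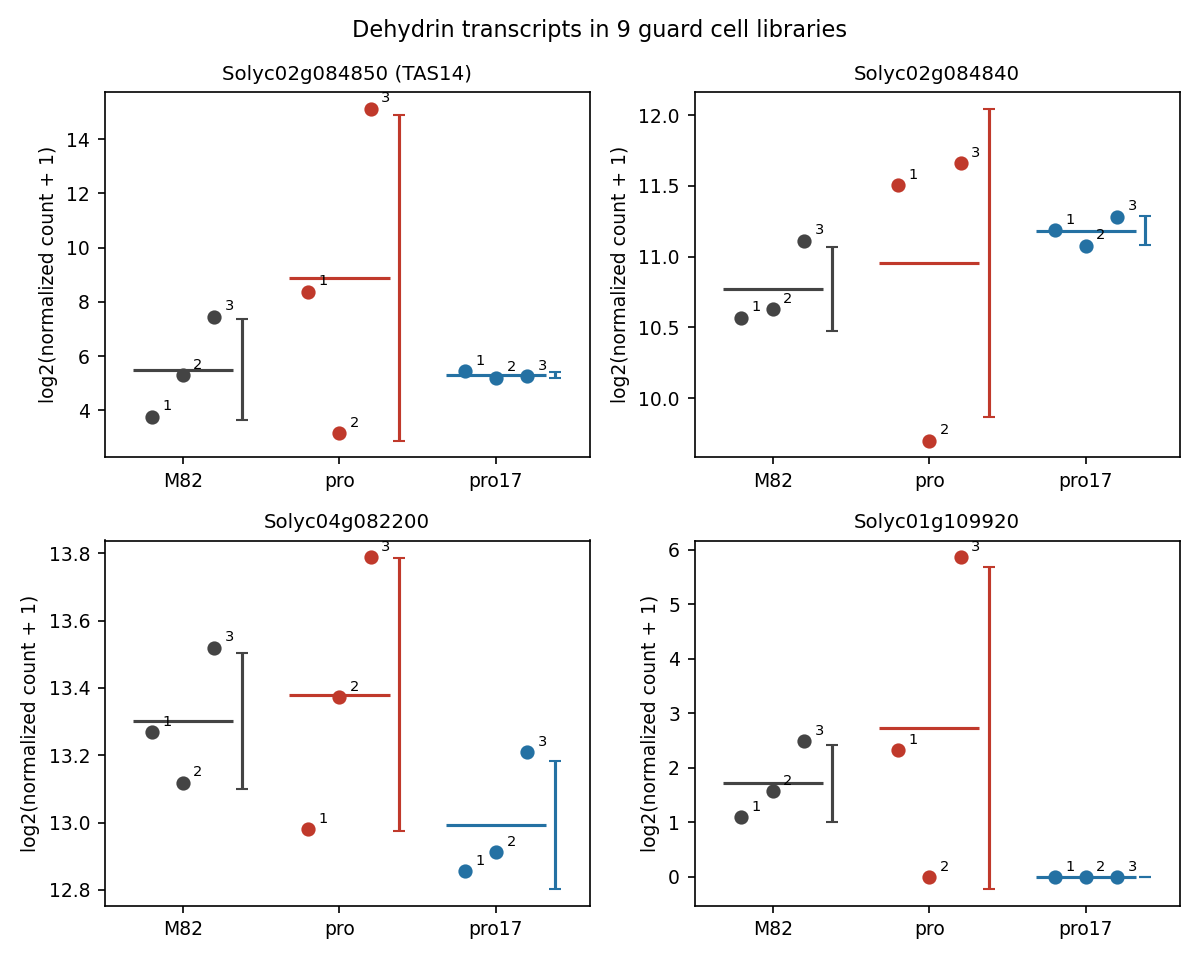
Level of each dehydrin locus in the 9 libraries, as log2(normalized count + 1), with a separate vertical scale for each locus. Numbered points are libraries, horizontal lines the group means and vertical bars 1 SD (n = 3). Pro library 3 is the highest point in all 4 panels, TAS14 spans 7.91 to 35710 normalized counts within pro, and the 3 pro17 points of Solyc01g109920 are at 0.

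The spread of TAS14 on the scale log2(normalized count + 1) ranked first of the 20951 genes tested in pro. There its SD over 3 libraries was 6.0, while the median SD of all genes tested was 0.36. The M82 SD of TAS14 was 1.85, larger than for 99.6% of the genes tested (median 0.21). In pro17 its SD was 0.12 and larger than for 41.0% of the genes (median 0.14), so there TAS14 spread no more than a usual gene. Over all 9 libraries, too, the range of TAS14 on this scale, 11.97, was the largest of any tested gene.

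**Figure D2:**
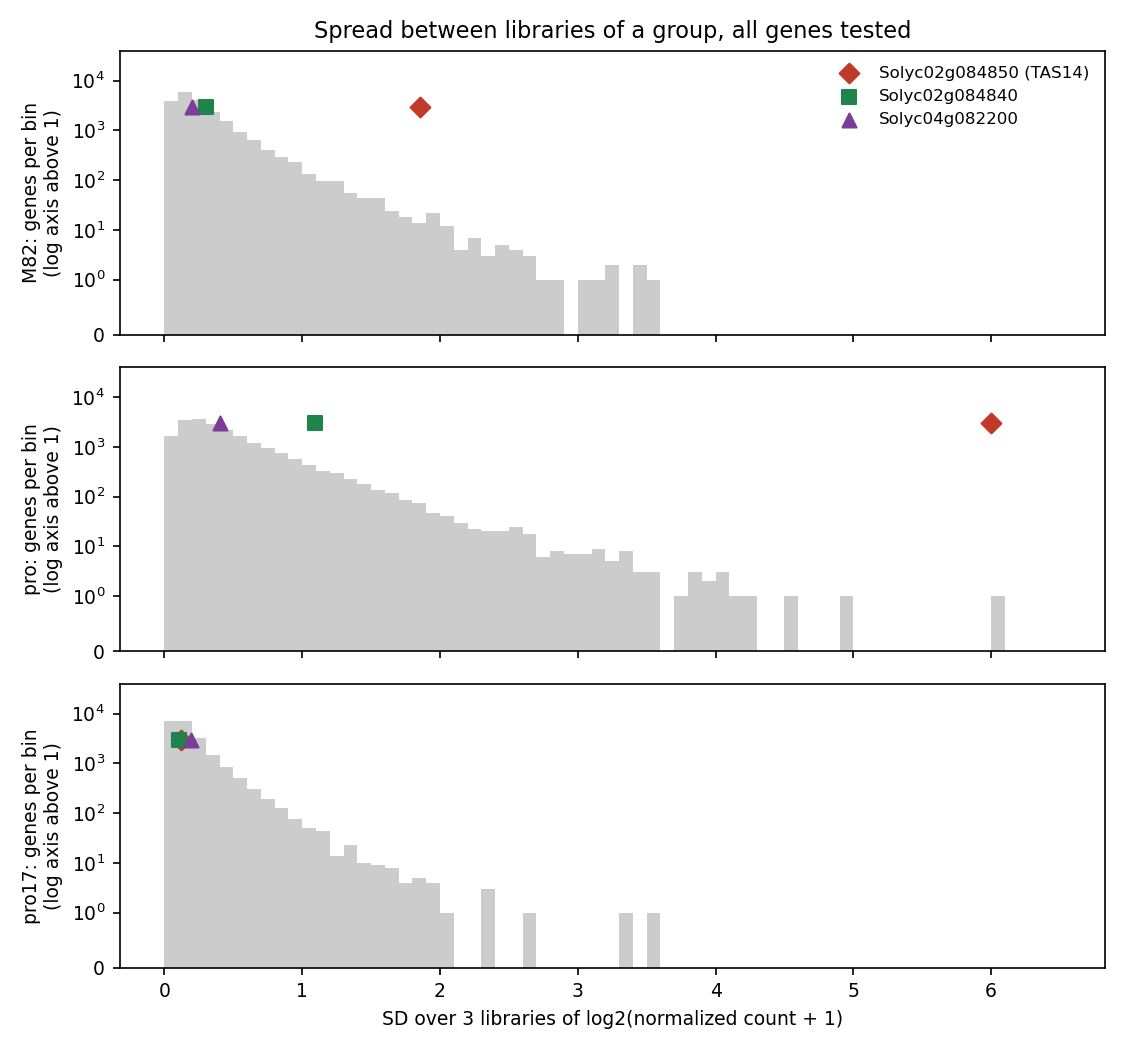
Histograms of the SD between the 3 libraries of a group for all 20951 genes tested, on the scale log2(normalized count + 1), one panel per group, with a count axis that is logarithmic above 1. Coloured marks give the SD of 3 dehydrin loci and their height carries no value. TAS14 sits at 6.0 at the far right in pro, at 1.85 in M82 and at 0.12 within the bulk in pro17.

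Group means therefore say little for TAS14. The mean normalized count was 12016 ± 20520 in pro, 75.1 ± 87.0 in M82 and 38.5 ± 3.28 in pro17 (mean ± SD, n = 3). In limma's test the log2 fold change of pro against M82 was 3.38 ± 2.42 SE (95% interval -2.10 to 8.86, adjusted p = 0.723). That of pro17 against M82 was -0.20 (-5.68 to 5.28, adjusted p = 0.9998) and that of pro17 against pro -3.58 (-9.06 to 1.90, adjusted p = 0.468). These intervals are wide enough to hold both a large rise and a fall, and they do not show that the groups are alike. The fit shares its estimate of the spread over all groups, so pro also widens the interval of pro17 against M82. With only the 6 libraries of that comparison the limma interval was -1.96 to 1.55 around the same -0.20 (adjusted p = 0.938). Without pro library 3 the change of pro against M82 shrank to 0.26 (adjusted p = 0.9999) and that of pro17 against pro to -0.46 (adjusted p = 0.904).

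Leaving out pro library 2 instead gave 6.25 for pro against M82 (adjusted p = 0.0724), a setting in which 3.66% of all genes tested were called and, of the 3 dehydrin loci, only Solyc02g084840. For pro17 against pro it gave -6.45 and a call (adjusted p = 0.0371), with 15.3% of all genes called. In pro17 against M82 no locus was called without pro library 2 (0.42% of genes called). Without pro library 3, 0 of the 3 loci were called, and the shares of genes called were 0.215%, 0.95% and 5.39% in pro against M82, pro17 against M82 and pro17 against pro. With all 9 libraries, limma called 0 of the 3 tested loci in every comparison, and 0 had an unadjusted p under 0.05. The 3 comparisons share libraries, and each is given on its own. The share of all genes called was 0.21% in pro against M82, 0.119% in pro17 against M82 and 3.4% in pro17 against pro. In pro against M82, 44 genes passed with all 9 libraries and 23 when only the M82 and pro libraries were fitted. With the replicate number as a block in the latter fit 14 passed. Neither of these smaller fits called a dehydrin locus.

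The authors' deposited table calls TAS14 in both comparisons that hold pro. Its log2 fold change there is 7.32 for pro against M82 (adjusted p = 0.0207) and -8.29 for pro17 against pro (adjusted p = 6.23e-04), with 0.751% and 7.81% of the listed genes called. For pro17 against M82 the authors' deposited table gives -0.96 (adjusted p = 1), with 1.34% called. DESeq2 on the recovered reads gave TAS14 no p-value, because its filter on Cook's distance removes genes in which a single library dominates the fit, and called 0 of the other 2 loci, where 0.875%, 1.56% and 8.84% of genes were called in the 3 comparisons. With that filter turned off DESeq2 gave 7.32 (adjusted p = 0.0177, 0.888% of genes called) and -8.29 (adjusted p = 5.34e-04, 8.88% called) and no call in pro17 against M82 (1.56% called), close to the authors' deposited table. With the filter off and pro library 3 left out, DESeq2 gave 1.17 for pro against M82 (adjusted p = 1) and -2.13 for pro17 against pro (adjusted p = 0.485). EdgeR on the same reads gave 7.31 (adjusted p = 0.609) and -8.28 (adjusted p = 0.120). EdgeR called 0 of the 3 loci in any comparison, though TAS14 had an unadjusted p of 0.0131 in pro against M82 and 0.00901 in pro17 against pro. It called 0.181%, 0.0811% and 3.16% of all genes in the 3 comparisons. The count models compare mean counts, nearly all of which pro library 3 supplies, while limma averages log2 values, and the same libraries thus give 7.32 on one scale and 3.38 on the other.

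**Figure D3:**
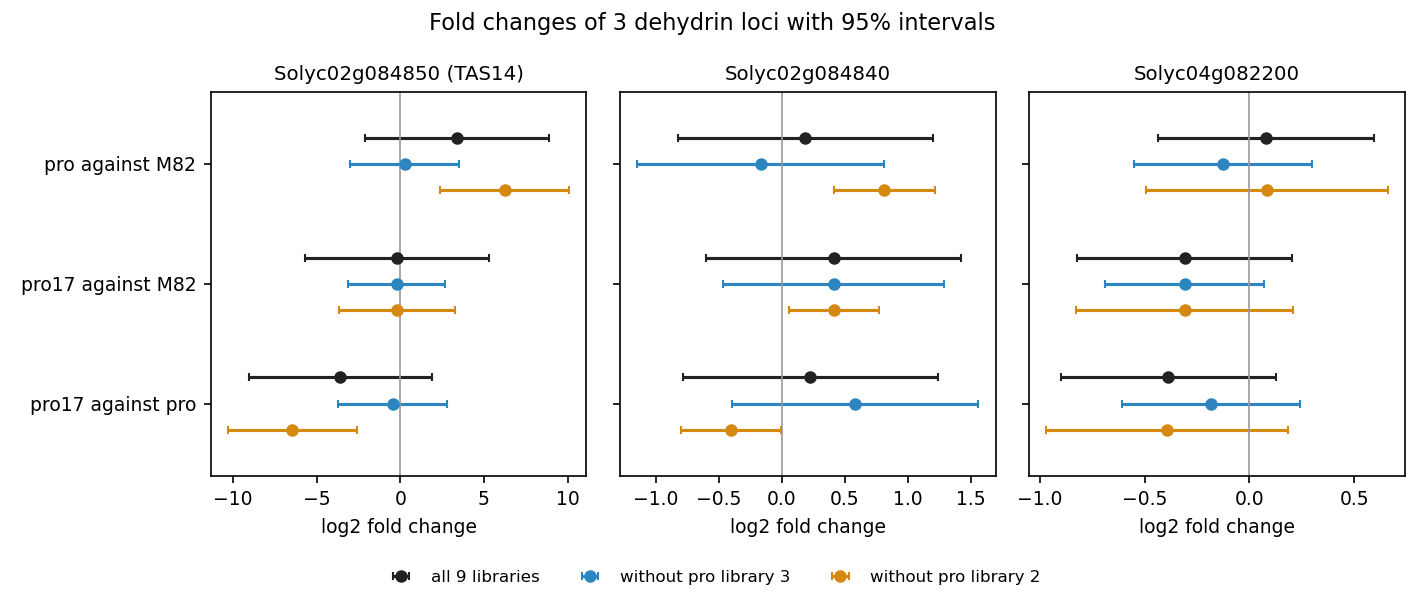
Log2 fold changes from limma with 95% confidence intervals for the 3 tested dehydrin loci in the 3 comparisons, each panel with its own horizontal scale. Black marks use all 9 libraries, blue marks leave out pro library 3 and orange marks leave out pro library 2. For TAS14 in pro against M82 the mark moves from 3.38 to 0.26 without pro library 3 and to 6.25 without pro library 2.

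Solyc02g084840, the locus whose identifier directly precedes that of TAS14 on chromosome 2, moved far less. Its normalized count was 1518, 1583 and 2214 in the M82 libraries, 2907, 830 and 3241 in the pro libraries, and 2335, 2160 and 2489 in the pro17 libraries. As with TAS14, pro library 2 held the lowest value, pro library 3 the highest and pro library 1 the next highest. M82 and pro17 overlapped only at M82 library 3 and pro17 library 2. The highest pro value was 3.90 times the lowest, and the SD in pro was 1.09 on the log2 scale, above that of 91.5% of genes tested. In M82 it was 0.30 and in pro17 0.10.

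The mean normalized count of Solyc02g084840 was 1772 ± 384 in M82, 2326 ± 1306 in pro and 2328 ± 165 in pro17 (mean ± SD, n = 3). No comparison passed in limma. Its log2 fold change in pro against M82 stood at 0.19 (95% interval -0.82 to 1.20, adjusted p = 0.889). It was 0.41 for pro17 against M82 (-0.60 to 1.42, adjusted p = 0.972) and 0.23 for pro17 against pro (-0.78 to 1.24, adjusted p = 0.815). The spread shared with pro widens the interval of pro17 against M82. With only the 6 libraries of that comparison the limma interval was 0.07 to 0.75, above 0 but without a call (unadjusted p = 0.0229, adjusted p = 0.228). The authors' deposited table gives 0.39, 0.39 and 0.00 (adjusted p = 0.855, 1 and 0.999). The first and the last limma value hinged on single pro libraries. Without pro library 2, pro against M82 became 0.81 ± 0.17 SE and passed (adjusted p = 0.0431), and pro17 against pro turned to -0.40 (adjusted p = 0.147). Without pro library 1 or pro library 3 the change of pro against M82 turned to -0.09 (adjusted p = 0.953) or -0.17 (adjusted p = 0.9999).

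Over all 9 libraries, Solyc04g082200 was the steadiest of the 4 loci relative to its own mean. It read 9865, 8893 and 11741 normalized counts in M82, 8078, 10598 and 14148 in pro, and 7414, 7702 and 9465 in pro17. All 9 values lay within a factor of 1.91, and each pair of groups overlapped. The SD in pro was 0.40, larger than for 55.3% of the genes tested, and so near the middle of all genes. In pro17 the SD was 0.19, larger than for 64.5% of the genes and the largest of the 3 tested dehydrin loci. Its order in pro differed from that of the other 3 loci, with library 1 lowest rather than library 2.

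The mean normalized count of Solyc04g082200 was 10166 ± 1448 in M82, 10941 ± 3050 in pro and 8194 ± 1111 in pro17 (mean ± SD, n = 3). Its log2 fold change in pro against M82 stood at 0.08 (95% interval -0.44 to 0.59, adjusted p = 0.908). It was -0.31 for pro17 against M82 (-0.82 to 0.20, adjusted p = 0.897) and -0.39 for pro17 against pro (-0.90 to 0.13, adjusted p = 0.404). These are the narrowest intervals of the 3 loci, and all lie within a change of 1 on the log2 scale. The authors' deposited table gives 0.11, -0.31 and -0.42 (adjusted p = 0.92, 0.938 and 0.33). In pro against M82 the small limma value turned to -0.13 (adjusted p = 0.9999) without pro library 3. None passed under any setting tried.

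Solyc01g109920 was barely read outside a single library. The reads were 1, 2 and 5 in M82, 4, 0 and 64 in pro, and 0 in each pro17 library. The normalized counts were 1.14, 1.96 and 4.61 in M82 and 4, 0 and 57.4 in pro. Pro library 3 held 64 of the 68 pro reads, and its 3.13 RPM (95% exact interval 2.41 to 4.0) lay above the interval of each other library. A count of 0 in the pro17 libraries allows up to 0.157, 0.154 and 0.202 RPM, taking 3 reads as the limit. The M82 and pro17 libraries did not overlap at this locus, as at 20.5% of all listed genes. In pro against M82 and pro17 against pro the groups overlapped at all 4 loci, while 9.17% and 22.3% of listed genes had groups that did not.

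The observed means of Solyc01g109920 were set against a limit of 3 reads over the pro17 libraries together. The M82 mean was 2.56 times this limit and the pro mean 20.3 times. Without pro library 3 the pro mean was 1.99 times the limit. These ratios leave out the counting error of 8 reads in M82 and of 4 reads in pro without library 3. They are therefore not lower bounds on a fold change. With no filter on low values limma gave Solyc01g109920 a log2 fold change of 1.01 for pro against M82 (adjusted p = 0.792). It was -1.72 for pro17 against M82 (adjusted p = 0.876) and -2.73 for pro17 against pro (adjusted p = 0.289). The authors' deposited table lists -9.10 for pro17 against pro (adjusted p = 0.0391), a call in which pro17 has no read and 64 of the 68 pro reads come from pro library 3. For the other comparisons the authors' deposited table lists 2.98 (adjusted p = 0.643) and -6.12 (adjusted p = 0.593).

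Single libraries stood out at several of the loci. Pro library 3 was the highest of all 9 at 4 of the 4 loci, as at 28.7% of all listed genes. Pro library 2 alone was the lowest of all 9 at TAS14 and Solyc02g084840, as at 13.7% of listed genes, and within pro it was the lowest at TAS14, Solyc02g084840 and Solyc01g109920, as at 39.1%. M82 library 3 was the highest M82 library at all 4 loci, as at 38.8% of all genes. The 3 libraries with the most TAS14, namely pro library 3, pro library 1 and M82 library 3, were also the top 3 on the first principal component of all genes. The summed mesophyll loci were lowest in the same 3 libraries and highest in pro library 2, where TAS14 was lowest. The single phloem locus went the other way in pro, highest of all libraries in pro library 3 (27084) and lowest in pro library 2 (11118). In M82 library 3 it stood at 15659, below each pro17 library. The part of mesophyll or phloem content, or of these libraries, in the dehydrin values was not tested.

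Across the 9 libraries, TAS14 and Solyc02g084840 gave a Spearman rho of 0.85 (exact permutation test, p = 0.00607, adjusted p = 0.0364 over 6 pairs) and a Pearson r of 0.708 on log2 values (exact permutation p = 0.0584, adjusted p = 0.117). Without pro libraries 3 and 1, the farthest from the median of TAS14, r was 0.741 (exact permutation p = 0.0762). TAS14 and Solyc01g109920 gave r = 0.929 (exact permutation p = 0.00271, adjusted p = 0.0163) and rho = 0.749 (adjusted p = 0.0841). Without the same 2 libraries r was 0.579 (exact permutation p = 0.148). With only pro library 3 left out r was 0.715 (exact permutation p = 0.0405, adjusted p = 0.121). With only pro library 1 left out it was 0.927 (exact permutation test, adjusted p = 0.0321). TAS14 and Solyc04g082200 gave r = 0.577 (adjusted p = 0.157) and rho = 0.117 (adjusted p = 0.931, all exact permutation tests), and r was 0.0837 without the 2 farthest libraries and -0.15 without pro library 3. Solyc02g084840 and Solyc04g082200 did not move together, with r = 0.00934 and rho = 0 (adjusted p = 0.981 and 1, exact permutation tests), and r was -0.28 without pro libraries 2 and 3. For Solyc02g084840 and Solyc01g109920 r was 0.510 and rho 0.435 (adjusted p = 0.194 and 0.359), and for Solyc04g082200 and Solyc01g109920 they were 0.716 and 0.566 (adjusted p = 0.0819 and 0.233, all exact permutation tests). Without the 2 farthest libraries these pairs gave r = 0.00478 and 0.181. The libraries are pooled over 3 groups and share depth and preparation, so these relations are between libraries and not within a genotype. The permutation tests treat the 9 libraries as interchangeable. Of 16911 other genes with a mean normalized count of at least 50, 1027 had an r above 0.9 with TAS14. A high r with TAS14 is thus not particular to dehydrin loci, and the share of genes with as high a rho was not counted.

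TAS14 moved on a steeper scale than its neighbour. Its log2 level minus that of Solyc02g084840, in which transcript length is not taken into account, was -3.13, -6.54 and 3.46 in pro libraries 1, 2 and 3. It was -6.81, -5.33 and -3.66 in M82, and -5.76, -5.87 and -6.02 in pro17. Reads that could belong to either locus, should the transcripts be alike, cannot be told apart, as the counting rule for such reads is not given in the sources used here. Within pro17 this difference stayed within a narrow band, while in M82 and pro it was most negative where TAS14 was lowest. As the difference contains the TAS14 level, which spread more than Solyc02g084840 in M82 and pro, it largely follows TAS14 there.

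**Figure D4:**
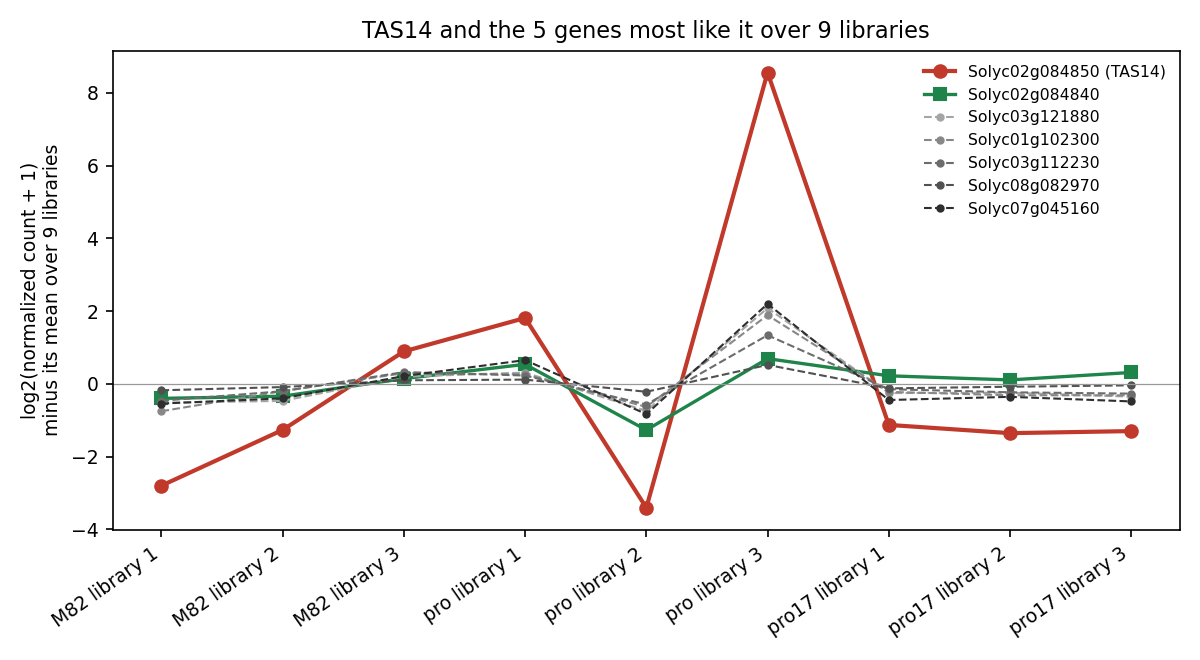
Deviation of log2(normalized count + 1) from its own mean over 9 libraries for TAS14 (red), Solyc02g084840 (green) and the 5 genes most like TAS14 by Pearson r (grey, dashed), by library. The grey lines, with r from 0.991 to 0.993 to the red one, also peak in pro library 3 but rise less there.

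Likeness to the dehydrin loci was measured by Pearson r on log2 values, which for TAS14 leans on the far value of pro library 3 and does not require the same order of libraries. Of 16911 other genes with a mean normalized count of at least 50, 1027 had a Pearson r above 0.9 with it over the 9 libraries. The same count was 593 for Solyc01g109920, 91 for Solyc02g084840 and 12 for Solyc04g082200. For Solyc01g109920, too, r leans on pro library 3, with 64 reads there and at most 5 in any other library. The 5 most like TAS14 were Solyc03g121880, Solyc01g102300, Solyc03g112230, Solyc08g082970 and Solyc07g045160, with r from 0.991 to 0.993. Solyc03g121880 read 2672, 1286 and 9133 normalized counts in the pro libraries, 1506, 1558 and 2475 in M82, and 1809, 1821 and 1689 in pro17. It was thus lowest in pro library 2 and highest in pro library 3, as TAS14 was, over a far smaller range. Solyc07g045160 read 1333, 475 and 3893 in pro, while Solyc08g082970 read 625, 495 and 827 there.

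The genes most like Solyc02g084840 were Solyc10g086720 (r = 0.987), Solyc07g042025 (0.977), Solyc04g077390 (0.977), Solyc04g078670 (0.972) and Solyc06g005290 (0.972). Solyc10g086720 read 79.0, 22.7 and 99.5 normalized counts in pro, 40.0, 47.1 and 72.0 in M82, and 64.3, 67.4 and 68.8 in pro17. Those most like Solyc04g082200 were Solyc04g005730 (r = 0.956), Solyc10g005730 (0.935), Solyc03g033580 (0.933), Solyc06g071290 (0.931) and Solyc09g064320 (0.928). Those most like Solyc01g109920 were Solyc08g005200 (r = 0.985), Solyc11g067020 (0.984), Solyc08g008290 (0.982), Solyc10g008340 (0.981) and Solyc02g078900 (0.981). No gene stands on more than 1 of these 4 lists of most alike genes. With 9 libraries and 16911 genes high values of r arise easily, and they are given as a description.

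Other loci of the abscisic acid and drought responses, listed by identifier from general knowledge and likewise not checked against an annotation, gave no call in limma or edgeR. Of 10 loci listed for abscisic acid signalling, limma called 0 in each comparison, with 2, 1 and 2 at an unadjusted p under 0.05 in pro against M82, pro17 against M82 and pro17 against pro. DESeq2 called 3 in pro17 against pro, where it called 8.84% of all genes, and 0 in the others, where it called 0.875% (pro against M82) and 1.56% (pro17 against M82). The median log2 fold change of this list was 0.66, -0.17 and -0.68, against -0.00, -0.01 and 0.01 over all genes tested. The list does not separate loci that raise signalling from loci that lower it, so its median gives no direction of signalling. Pro library 3 held the highest value at 7 of the 10 loci, and at 28.7% of all listed genes. The locus of this list with the smallest p in both comparisons that hold pro, Solyc06g076400, read 4379, 1974 and 7325 normalized counts in pro, 1591, 1774 and 2751 in M82, and 1444, 1526 and 1438 in pro17. The limma log2 fold change of Solyc06g076400 was 1.01 in pro against M82 (adjusted p = 0.712) and -1.44 for pro17 against pro (adjusted p = 0.102). Its order within pro matched that of TAS14. The pro libraries 1 to 3 stood in the same order on the first principal component of all tested genes (43.0, -29.0 and 122). How many genes share this order was not counted, and pro library 2 was the lowest pro library at 39.1% of all listed genes. In pro17 against M82 the smallest p of this list was at Solyc06g061180, with a log2 fold change of -0.34 (adjusted p = 0.554).

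Of 7 loci listed for abscisic acid synthesis and turnover, limma, edgeR and DESeq2 called 0 in any comparison, with 2, 1 and 0 at an unadjusted p under 0.05 in limma. The median log2 fold change was 0.46, 0.15 and -0.16 in the 3 comparisons, taken in the same order. The list pools enzymes that make and break down the hormone, so its median says nothing on the hormone's level. Solyc04g078900 had the smallest p against M82 in both lines, at 1.14 for pro (adjusted p = 0.614) and 0.98 for pro17 (adjusted p = 0.547). It read 2001, 1346 and 4587 normalized counts in pro, 1192, 831 and 1166 in M82, and 2157, 1975 and 2074 in pro17, so all M82 libraries lay below all others, and pro library 3 was the highest, as at 28.7% of all listed genes. Groups did not overlap at 9.17% of listed genes in pro against M82 and at 20.5% in pro17 against M82. Solyc02g090890 had the smallest p in pro17 against pro, at -0.41 (adjusted p = 0.327).

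Of 8 loci listed for other protective proteins and proline synthesis, 7 were tested, and limma and edgeR called 0. In limma 1, 0 and 1 had an unadjusted p under 0.05, and DESeq2 called 1, 0 and 1 in the 3 comparisons, where it called 0.875%, 1.56% and 8.84% of all genes. The median log2 fold change of this list was -0.00, -0.10 and 0.00. The smallest p in both comparisons with pro was at Solyc04g071600, which read 6.0, 4.9 and 10.8 normalized counts in pro, 27.4, 19.6 and 41.5 in M82, and 21.1, 21.6 and 26.6 in pro17. All pro libraries lay below all others at this locus. Groups did not overlap at 9.17% of listed genes in pro against M82 and at 22.3% in pro17 against pro. On limma's log2 scale pro stood at -1.89 relative to M82 (adjusted p = 0.167), and pro17 at 1.604 relative to pro (adjusted p = 0.0578). Within pro the order of Solyc04g071600 matched that of TAS14, with library 2 lowest, as at 39.1% of all listed genes, and library 3 highest. M82 library 3 was the highest of M82 at both loci, as at 38.8% of all listed genes. The pro values of Solyc04g071600, 4.9 to 10.8 normalized counts, are low. In pro17 against M82 the smallest p was at Solyc06g019170, at 0.57 (adjusted p = 0.810). Pro library 3 held the highest value at 4 of the 8 loci, against 28.7% of all listed genes.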

How the data were processed

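The authors' deposited table holds a signal per gene and library, headed normalized counts per the file headers, for 9 libraries. DESeq2, HTSeq, STAR 2.4.2a and cutadapt are the tools that the submitters' processing notes name. For build, annotation and strand, nothing is given in the sources used here. The authors' log2 fold changes and adjusted p-values for 3 comparisons are in the same deposited table, and 2 unnamed columns, filled in 81 rows, were not used. Within 0.006, 100% of values in each library were whole multiples of the value of 1 read, which gave whole reads.

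The main test was limma 3.58.1 (R 4.3.3), with trended prior variance, on the deposited normalized counts after adding 1 and taking log2, with all 9 libraries in one fit. This scale understates changes of low genes. EdgeR's expression filter on recovered reads kept 20951 genes. P-values were adjusted by Benjamini-Hochberg over these, with a threshold of 0.05. EdgeR 4.0.16 and DESeq2 1.42.0 on recovered reads were alternatives, beside other pseudocounts, scaling, no filter, the 6 libraries of a comparison, a replicate block and leaving out each library.

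Same-numbered pro and M82 libraries deviated together from their group means (r across genes of 0.133, 0.503 and 0.523). Differently numbered ones ran from -0.555 to 0.259, the latter for M82 library 1 with pro library 2. The number may pair libraries, but this check cannot decide it, as deviations from a mean over 3 libraries are tied together. In the comparisons with pro17 the lowest r of same-numbered libraries was 0.0219. Members and lists were chosen with earlier results of these data known. The text names the 4 loci, the 5 genes with the highest Pearson r with each over the 9 libraries (mean of at least 50), and, per list and comparison, loci that pass or else the one with the smallest p. Titles of pro17 libraries 2 and 3 carry other numbers after the delta sign, and the description and genotype labels were followed. No dehydrin sequence was used here.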

Additional observations from a re-analysis of the deposited data

How the results depend on the processing

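No dehydrin locus passed the main test in any comparison, and the 2 comparisons with pro hinge on single libraries. With DESeq2 without its Cook's distance filter, 1 tested locus, TAS14, was called in pro against M82 (log2 fold change 7.32) and in pro17 against pro (-8.29). Without pro library 2, 1 locus was called in each, Solyc02g084840 in the first and TAS14 in the second. In pro17 against M82, 0 loci passed under any setting. The adjusted p of TAS14 ranged from 0.0177 to 1, 0.922 to 1 and 5.34e-04 to 0.904 in the 3 comparisons, that of Solyc02g084840 from 0.0431 to 1, 0.228 to 1 and 0.147 to 0.999, and that of Solyc04g082200 from 0.748 to 1, 0.370 to 1 and 0.226 to 0.730.

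When single libraries were left out, the change of TAS14 ranged from 0.26 to 6.25, -1.07 to 0.77 (positive without M82 library 3) and -6.45 to -0.46. That of Solyc02g084840 ranged from -0.17 to 0.81 (negative also without pro library 1, -0.09), 0.31 to 0.58 and -0.40 to 0.58, and that of Solyc04g082200 from -0.13 to 0.28 (negative without M82 library 2, -0.01, or pro library 3), -0.42 to -0.20 and -0.59 to -0.18. DESeq2 without pro library 3 and without its filter also gave -0.13 for Solyc04g082200 in pro against M82. The log2 difference of Solyc01g109920, which the filter on low values kept out of the main test, ranged from -0.56 to 2.38, -2.03 to -1.33 and -4.09 to -1.16. With a pseudocount of 0.1 it was -4.52 in pro17 against M82 and -4.84 in pro17 against pro, and with 5 it was -0.57 in the former, as the pseudocount sets the value of a group at 0.

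Left-out libraries moved r to 0.685 to 0.787 for TAS14 and Solyc02g084840 (passing without pro library 2), 0.715 to 0.951 for TAS14 and Solyc01g109920 (not passing without M82 library 3 or pro library 3), -0.15 to 0.698 for TAS14 and Solyc04g082200, -0.46 to 0.263 for Solyc02g084840 and Solyc04g082200 (-0.02 without M82 library 2, -0.03 without M82 library 3), 0.293 to 0.603 for Solyc02g084840 and Solyc01g109920, and 0.325 to 0.816 for Solyc04g082200 and Solyc01g109920 (passing without pro library 1 or 2). Other pseudocounts and TMM scaling changed no sign or call of a correlation.

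Over all genes, pro against M82 had 44 calls, 183 with DESeq2, 186 with DESeq2 without its filter, 178 when that also left out pro library 3, 23 with only 6 libraries, 14 with those and a replicate block, and 25 to 766 without single libraries. Pro17 against M82 had 25, 41 with a pseudocount of 5, 327 with DESeq2 with or without its filter, 764 without pro library 3 too, 12 with a replicate block, 436 with only 6 libraries, and 1 to 199 without single libraries. Pro17 against pro had 712, 1850 and 1861 with DESeq2, 1977 without pro library 3 too, 273 with only 6 libraries, and 161 to 3196 without single libraries. The replicate block changed no call of a dehydrin locus (adjusted p of TAS14 0.541, 0.994 and 0.337). The cause of these shifts was not tested. EdgeR on the recovered reads called 38, 17 and 663 genes. Depth limits Solyc01g109920, with 8 reads in M82 and 0 in pro17.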
